A study of Mus musculus with 6 samples.

Results

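The calcium/calmodulin-dependent protein kinases (CaM kinases) described here are 10 mouse genes, found by their symbols among the 24411 genes of the count tables. They are the kinase kinases Camkk1 and Camkk2, the CaMKI genes Camk1, Camk1d and Camk1g, the CaMKIV gene Camk4, and the CaMKII genes Camk2a, Camk2b, Camk2d and Camk2g. All 10 had reads in every library, from 449 to 20440, and all 10 passed the filter on low counts. Bulk RNA-seq was made at postnatal day 18 (P18) of 3 libraries from mice whose large enhancer of Atoh7 was knocked out (enhancer KO) and 3 wild-type libraries (WT). Strain, sex, litter, zygosity and the deleted interval are not given in the labels, which call the replicates independent and name no animals, so p-values measure the spread between these libraries. The labels name cerebellum as the dissected tissue in the protocol and retina in the tissue and source fields.

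In neurons, calcium entering through channels and receptors binds calmodulin, and the complex opens the CaM kinases. CaMKK phosphorylates the activation loop of CaMKI and CaMKIV, which forms a cascade. CaMKIV enters the nucleus and phosphorylates the transcription factor CREB. CaMKII assembles into a ring-like holoenzyme that phosphorylates itself and remains active after calcium has fallen. In the cerebellum Camk4 is known as a product of granule neurons, Camk2a among cerebellar neurons as a product of Purkinje cells, and Camk2b as the more abundant CaMKII form.

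Gene reads ranged from 36849747 to 40858310 in the enhancer KO libraries and from 22812075 to 33076111 in the WT libraries. Reads outside annotated exons made up 17.4% ± 0.735 of all reads in enhancer KO and 32.4% ± 1.56 in WT (SD, n = 3 each; exact permutation p = 0.1, which is the lowest 3 against 3 can reach). WT replicate 2 had 20.4% unmapped reads and 12.9% of its gene reads on the ribosomal RNA gene Rn45s, against 1.51% to 3.02% in the other libraries. WT replicate 1 had 1054 CPM (reads scaled to a common library size) of Xist and 0 reads of the Y-linked gene Ddx3y, unlike the other 5 libraries, so sex differs within the WT group. Atoh7 itself, the gene whose enhancer was deleted, had 0.766 ± 0.0835 CPM in enhancer KO and 2.04 ± 0.0945 CPM in WT (SD, n = 3 each), a log2 change of -1.41 ± 0.205 (SE) at an edgeR adjusted p of 0.000353. The summed level of 18 granule neuron markers was 2398 to 2974 CPM in enhancer KO and 3723 to 4442 CPM in WT, and that of 18 Purkinje cell markers was 7722 to 8295 CPM in enhancer KO and 5599 to 6777 CPM in WT. The 18 photoreceptor markers summed to 10.8 to 15.1 CPM in enhancer KO and 8.84 to 9.65 CPM in WT, with 1 of 5 tested genes higher and 1 lower. Most of that sum was Rom1, a disc membrane gene of photoreceptors, at 10.3 CPM in enhancer KO and 6.78 CPM in WT, while the cone arrestin gene Arr3 and the rod transducin gene Gngt1 had 0 reads in all 6 libraries. Against 13.4% of all genes tested called higher and 17.9% lower, the other lists had 5 of 13 interneuron genes higher and 1 lower, 5 of 12 astroglial and 5 of 10 microglial genes higher and 0 lower, 1 of 12 oligodendrocyte genes higher and 3 lower, 6 of 12 endothelial and mural genes lower and 0 higher, and 2 of 9 tested retinal ganglion cell genes higher and 0 lower.

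Of the 10 CaM kinase genes, 3 rose and 3 fell in enhancer KO. Camk1d, Camk1 and Camk2g were higher, and Camk4, Camkk2 and Camk2d were lower. On leaving out any 1 enhancer KO library, or WT replicate 2 or 3, 1 gene was higher, and without WT replicate 2, 1 was lower. After removing a trend over intron length, exon length and GC content (gene structure), 4 were higher and 0 lower. Camk2a was higher in every enhancer KO library than in every WT library but did not pass the test, and Camk2b, Camk1g and Camkk1 had log2 fold changes within 0.03 of 0. Across all genes tested, 31.3% were called at an adjusted p under 0.05, with 13.4% higher and 17.9% lower. Lower genes made up 57.3% of those calls, 42.4% after removing the gene structure trend, and 43.8% with libraries scaled by size alone. The median log2 fold change over all genes was 0.040 and 0.063 in those alternatives. Size alone leaves out the scaling factor of WT replicate 2, 0.898, the lowest of the libraries. The enhancer KO and WT ranges did not overlap for 44.8% of genes. Of the CaM kinase genes 6 of 10 were called and 7 of 10 did not overlap. Changes in the family were small, with no call beyond 1.44-fold, and no call held against a minimum fold of 1.2. The median log2 fold change of the family was 0.02, beside 0.00059 over all genes tested.

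**Figure D1:**
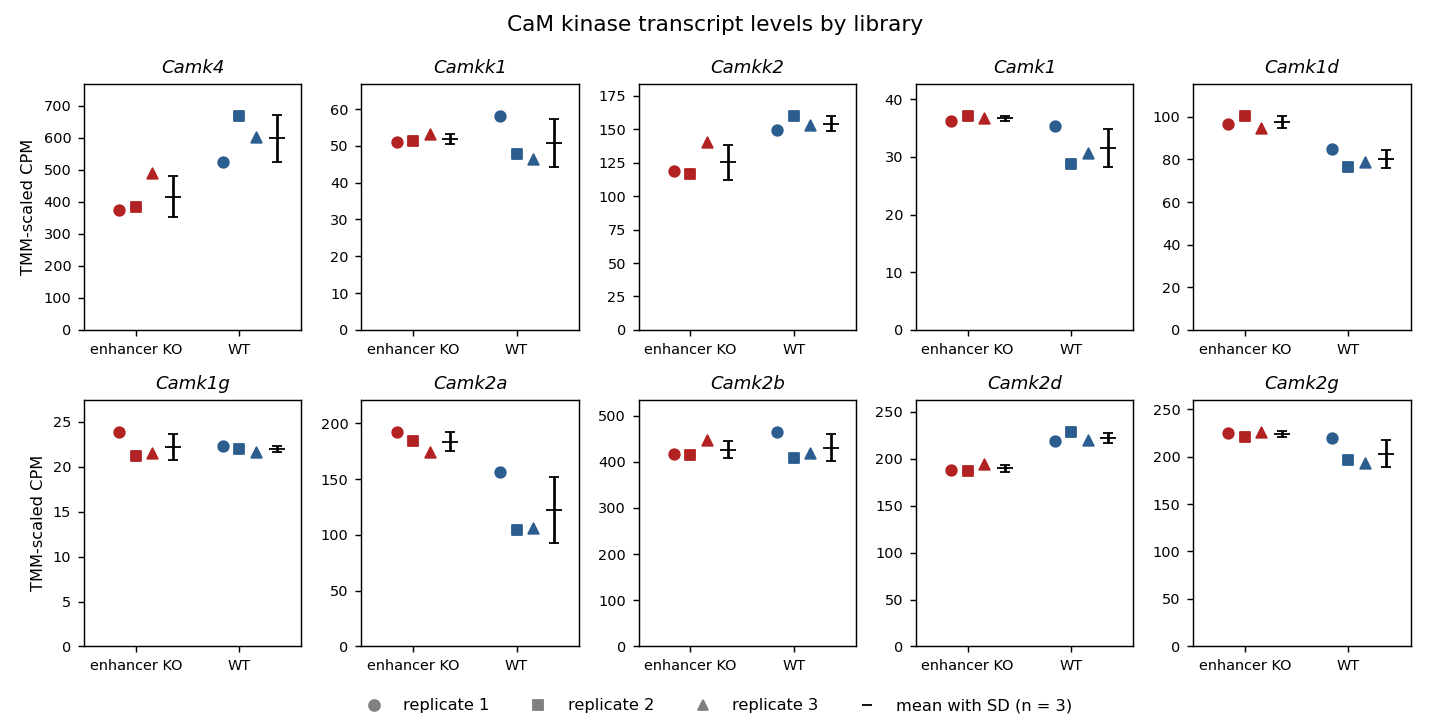
Levels of the 10 CaM kinase genes in each library (y axis, CPM on TMM-scaled library sizes, from 0), with the 3 enhancer KO libraries left of the 3 WT libraries and the mean with its SD beside them. Camk4, Camkk2 and Camk2d lie lower in all 3 enhancer KO libraries, and Camk2a falls between 174 and 192 CPM there, against 105 to 156 CPM in WT.

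Levels compared between genes were taken per kb of merged exon length. Camk4 was the most abundant CaM kinase transcript in both groups, with 128 ± 19.6 CPM per kb in enhancer KO and 184 ± 22.3 CPM per kb in WT (SD, n = 3 each). Camk2b followed with 46.7 CPM per kb in enhancer KO and 47.2 CPM per kb in WT, then Camk2g with 34.9 CPM per kb in enhancer KO and 31.7 CPM per kb in WT. Camk2a came next with 24.6 CPM per kb in enhancer KO and 16.4 CPM per kb in WT. These 4 genes did not overlap one another in either group. The other 6 genes lay between 6.14 and 13.9 CPM per kb in enhancer KO and between 5.28 and 14.1 CPM per kb in WT, with Camk1 lowest in both. Neighbours whose ranges overlapped were Camk1d with Camkk2 and Camk2d with Camk1g in enhancer KO, and Camk2a with Camkk2 and Camkk2 with Camkk1 in WT. The place of Camk2d and Camkk2 depends on the length used, since their merged exons span 22493 and 10921 bases and their principal transcripts 5524 and 2751 bases. Per kb of principal transcript, Camkk2 was at 45.6 CPM per kb in enhancer KO and 56.1 CPM per kb in WT, and Camk2d at 34.4 CPM per kb in enhancer KO and 40.3 CPM per kb in WT, beside Camk2a at 36.9 CPM per kb in enhancer KO and 24.6 CPM per kb in WT. Camk4 and Camk2b kept the top places on both lengths.

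Promoters are shown for the called members with an entry in the RefSeq promoter table (GRCm38.p6, the mm10 build), because Atoh7 is a basic helix-loop-helix factor and such factors bind E-boxes. Each runs 5′ to 3′ on the gene's strand over 300 bases, and capitals mark every E-box, CANNTG, which reads the same on both strands. The table matched 7 of the 10 members, all but Camk2a, Camk2g and Camk4. The promoters of the genes that rose, Camk1 (chr6:113343873-113344172, minus strand) and Camk1d (chr2:5714713-5715012, minus strand), come before those of genes that fell, Camk2d (chr3:126596701-126597000, plus strand) and Camkk2 (chr5:122779361-122779660, minus strand).
Camk1: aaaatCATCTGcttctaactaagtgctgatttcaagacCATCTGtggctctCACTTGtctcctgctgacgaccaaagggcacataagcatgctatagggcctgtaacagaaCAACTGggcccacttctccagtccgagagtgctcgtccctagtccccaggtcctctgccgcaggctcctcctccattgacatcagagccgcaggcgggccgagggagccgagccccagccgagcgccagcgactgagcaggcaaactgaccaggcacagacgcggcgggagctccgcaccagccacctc
Camk1d: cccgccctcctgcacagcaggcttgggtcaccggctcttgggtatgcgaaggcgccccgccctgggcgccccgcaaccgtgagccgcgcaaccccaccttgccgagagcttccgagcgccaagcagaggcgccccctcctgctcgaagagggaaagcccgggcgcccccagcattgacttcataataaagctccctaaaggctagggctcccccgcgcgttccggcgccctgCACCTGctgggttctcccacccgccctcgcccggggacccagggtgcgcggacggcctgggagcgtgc
Camk2d: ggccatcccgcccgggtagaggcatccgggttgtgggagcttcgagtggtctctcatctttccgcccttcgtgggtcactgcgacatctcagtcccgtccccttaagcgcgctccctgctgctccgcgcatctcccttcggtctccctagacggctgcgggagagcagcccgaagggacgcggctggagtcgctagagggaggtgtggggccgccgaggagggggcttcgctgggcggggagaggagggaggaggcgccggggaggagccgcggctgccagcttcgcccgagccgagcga
Camkk2: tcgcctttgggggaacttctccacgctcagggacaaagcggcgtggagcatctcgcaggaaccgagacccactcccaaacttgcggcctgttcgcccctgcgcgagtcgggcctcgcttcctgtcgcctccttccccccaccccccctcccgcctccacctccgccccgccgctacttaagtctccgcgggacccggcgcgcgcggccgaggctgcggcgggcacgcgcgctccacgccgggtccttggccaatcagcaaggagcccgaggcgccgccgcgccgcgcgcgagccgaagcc

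The Camk1 promoter held 4 E-boxes and the Camk1d promoter 1, and a second annotated start of Camk1d held 2. The windows of Camk2d and Camkk2 held 0. Of the members that were not called, Camk1g had 1 and Camk2b and Camkk1 had 0. An E-box was found in 72.3% of the 32851 promoters of the table. The core of the CREB site, TGACG on either strand, was present once each in Camk1 and Camkk1, overlapping no E-box, and in 20.8% of all promoters. The complete palindrome TGACGTCA was in none of these members' promoters and in 1.79% of all promoters. These are matches of letters, and no binding was measured.

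Camk4, the kinase that carries calcium signals to CREB in granule neurons, fell in enhancer KO. It lies on chromosome 18 at 32934931 to 33191228 of mm10, plus strand, and shares 72 exon bases with an antisense transcript, 2310026I22Rik, that counting by strand separates. Its level was 374, 385 and 490 CPM in the enhancer KO libraries, against 524, 669 and 603 CPM in the WT libraries. No enhancer KO library reached the lowest WT library, WT replicate 1, and enhancer KO replicate 3 was the nearest to it. Fitted with edgeR, the log2 change was -0.52 ± 0.138 (SE) with an adjusted p of 0.0356. The level fell by 30.4%, and 9.77% of the genes tested had a larger change in either direction. The call was lost on leaving out enhancer KO replicate 1 (edgeR adjusted p = 0.0894) or 2 (0.105) or WT replicate 2 (0.124) or 3 (0.106), and once the gene structure trend was taken out (log2 fold change -0.59, adjusted p = 0.0503). With no filter on low counts the adjusted p was 0.0918. Against WT replicate 1 by itself the log2 fold change was -0.31. A fit with that lone WT library takes its spread from the enhancer KO libraries and assumes that WT varies like them. So only the sizes of such changes are given, here and for other genes, though counts of alternative fits include it. WT replicate 1 also differs from every enhancer KO library in Xist and Ddx3y, so genotype and sex cannot be told apart in these comparisons.

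Granule neuron markers moved with Camk4. Of 18 such genes, none of them a CaM kinase, the median log2 fold change was -0.62. Of the 18, 17 fell and 0 rose, beside 17.9% of all genes lower and 13.4% higher. Leaving out enhancer KO replicate 1 gave 10 lower, and leaving out enhancer KO replicate 2 or WT replicate 2 gave 11. Their summed level was 2452, 2398 and 2974 CPM in enhancer KO and 3723, 4442 and 4322 CPM in WT, so enhancer KO replicate 3 was the highest of its group and WT replicate 1 the lowest of its group, as for Camk4. Camk4 amounted to 15.3%, 16.1% and 16.5% of that sum in enhancer KO, against 14.1%, 15.1% and 14.0% in WT (exact permutation p = 0.1, the smallest possible). Every enhancer KO library had the higher ratio. In bulk tissue fewer granule neurons and less Camk4 RNA per neuron cannot be told apart. Reads outside exons also differed, at 17.4% in enhancer KO and 32.4% in WT, and their part in the fall was not tested.

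The 5 genes whose levels over the 6 libraries were most like Camk4 were sought among 10309 genes of at least 10 CPM. The measure was the root mean square difference of log2 CPM centred on each gene's mean. They were Rps6ka1 (0.0448), which encodes the RSK1 kinase, Pvrl3 (0.0473), the cell adhesion gene of nectin-3, Exph5 (0.0492), Tspan4 (0.0510), which encodes a tetraspanin, and Neurod1 (0.0531). Neurod1, a transcription factor gene of granule neurons, is also on the marker list. Its level was 127, 127 and 169 CPM in enhancer KO, against 191, 239 and 220 CPM in WT. Likeness over 6 libraries is a description of these libraries.

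**Figure D2:**
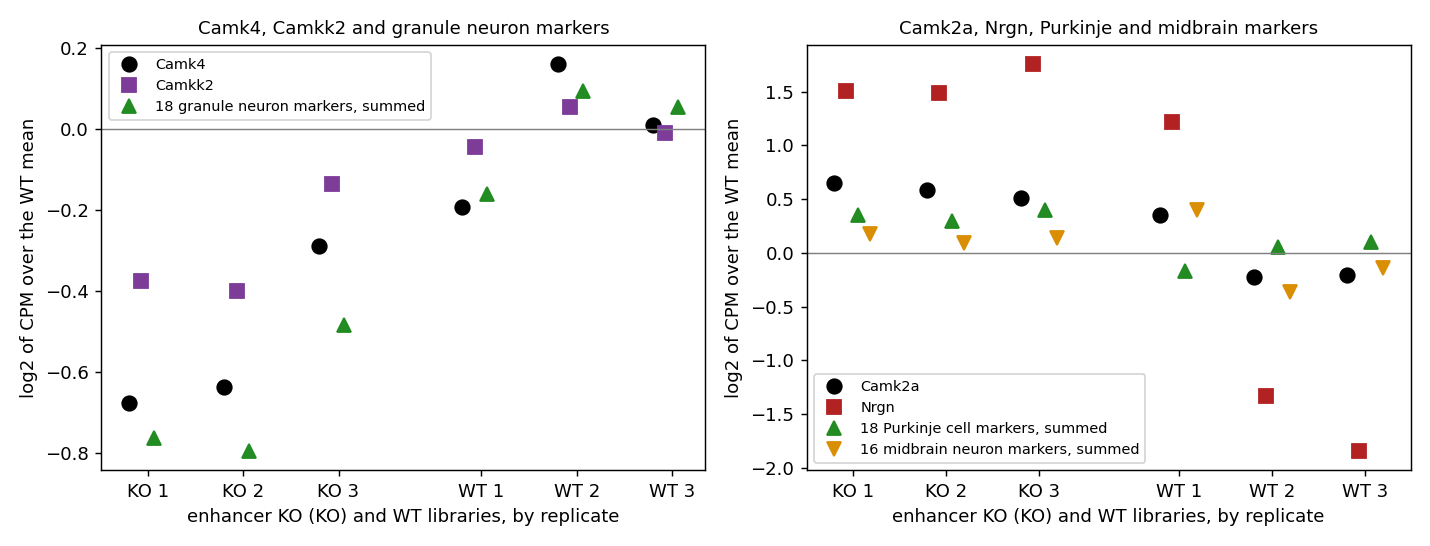
Each point is 1 library, with log2 of its CPM over the WT mean on the y axis and the enhancer KO libraries left of WT. On the left, Camk4, Camkk2 and the summed granule neuron markers are lowest in enhancer KO replicates 1 and 2; on the right, Camk2a and Nrgn are lowest in WT replicates 2 and 3, at 105 and 106 CPM and 12.1 and 8.49 CPM.

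Of the kinase kinases, Camkk2 fell and Camkk1 was not called. Both enzymes activate CaMKI and CaMKIV, and Camkk2 also activates AMPK. Camkk2, on chromosome 5 at 122731170 to 122779409, minus strand, had 119, 117 and 140 CPM in enhancer KO, against 149, 160 and 153 CPM in WT. The enhancer KO libraries were all lower, with enhancer KO replicate 3 again the closest to WT. Its log2 change came to -0.30 ± 0.0671 (SE) with edgeR's adjusted p at 0.00740. The call was lost without WT replicate 2 (edgeR adjusted p = 0.0534) and once the gene structure trend was taken out, where the log2 fold change was -0.18 (adjusted p = 0.172). Against WT replicate 1 by itself it was -0.23.

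Camkk1, on chromosome 11, had 50.9, 51.3 and 53.3 CPM in enhancer KO, against 58.2, 47.7 and 46.5 CPM in WT. The enhancer KO libraries lay inside the WT range. Its log2 fold change was 0.03, with a 95% interval of -0.15 to 0.20 (edgeR adjusted p = 0.827). The ratio of Camkk2 to Camkk1 per kb, which does not depend on library scaling, was 0.824 ± 0.0651 in enhancer KO and 1.05 ± 0.150 in WT (SD, n = 3 each; exact permutation p = 0.2). The groups overlapped in that ratio, in which WT replicate 1 was lowest of WT at 0.877 and the highest enhancer KO library was at 0.899.

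Of the CaMKI genes, Camk1d and Camk1 rose and Camk1g was not called. Camk1d, the delta form, on chromosome 2 at 5293457 to 5714515, minus strand, had 96.7, 100.5 and 94.9 CPM in enhancer KO, against 85.0, 76.6 and 79.0 CPM in WT. The groups were well apart. On the log2 scale it changed by 0.28 ± 0.0483 (SE) at an edgeR adjusted p of 0.00112, a rise of 21.3%. The call held in each fit that left out 1 library and was lost against the minimum fold of 1.2. Against WT replicate 1 by itself the log2 fold change was 0.22.

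Camk1, the alpha form, had 36.2, 37.1 and 36.7 CPM in enhancer KO, against 35.3, 28.7 and 30.6 CPM in WT. The enhancer KO libraries were nearly equal, and WT replicate 1 lay just under them. Fitted with edgeR, the log2 change was 0.21 ± 0.0703 (SE) with an adjusted p of 0.0367. It was called without WT replicate 1 (0.30, adjusted p = 0.00213) and lost without any other library (adjusted p = 0.0614, 0.0999 and 0.0607 without enhancer KO replicates 1, 2 and 3, and 0.105 and 0.123 without WT replicates 2 and 3). Against WT replicate 1 by itself it was 0.08. Camk1 (chromosome 6, 113334124 to 113343984, minus strand) shares 232 exon bases with the DNA repair gene Ogg1 on the other strand. Counting by strand separates them, and at most 2.81% of the Camk1 reads were on the other strand in any library.

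Camk1g, the lipid-anchored gamma form, had 23.8, 21.1 and 21.6 CPM in enhancer KO, against 22.3, 21.9 and 21.6 CPM in WT. The groups overlapped. Its log2 fold change was 0.02, with a 95% interval of -0.13 to 0.16 (edgeR adjusted p = 0.883).

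Of the CaMKII genes, Camk2d fell, Camk2g rose, and Camk2a and Camk2b were not called. Camk2d, the delta form, common in heart as well as brain, had 188, 187 and 194 CPM in enhancer KO, against 219, 228 and 220 CPM in WT. It lies on chromosome 3 at 126596302 to 126846326, plus strand. The groups were apart by more than their spread. Its log2 change came to -0.23 ± 0.0378 (SE) with edgeR's adjusted p at 0.000855. The level fell by 14.6%. Every fit that left out 1 library kept the call, and against WT replicate 1 by itself the log2 fold change was -0.18. Once the gene structure trend was taken out the sign turned (log2 fold change 0.034, adjusted p = 0.568), and with library size alone the call was lost (-0.16, adjusted p = 0.0960). Camk2d has the longest merged exons of the family, and reads outside exons were 17.4% in enhancer KO and 32.4% in WT. Genotype and that share cannot be told apart, since it did not overlap between the groups.

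Camk2g, the gamma form, on chromosome 14 at 20734875 to 20794088, minus strand, had the smallest change of the 6 calls. It had 225, 220 and 226 CPM in enhancer KO, against 219, 196 and 193 CPM in WT, and WT replicate 1 lay close to the enhancer KO libraries. On the log2 scale it changed by 0.14 ± 0.0482 (SE) at an edgeR adjusted p of 0.0442. The call was lost without any library other than WT replicate 1 (adjusted p = 0.0947, 0.0794 and 0.0826 without enhancer KO replicates 1, 2 and 3, and 0.132 and 0.175 without WT replicates 2 and 3). Against WT replicate 1 by itself the log2 fold change was 0.05. Of all genes tested, 55.1% had a larger change in either direction.

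Camk2b, the beta form, which binds actin, was the most abundant CaMKII transcript and did not pass. It had 416, 416 and 447 CPM in enhancer KO, against 464, 408 and 420 CPM in WT. The groups overlapped. The log2 fold change was -0.02, with a 95% interval of -0.14 to 0.11 (edgeR adjusted p = 0.867).

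Camk2a, the alpha form, had the largest change of the family but a wide spread in WT. Its level was 192, 184 and 174 CPM in enhancer KO, against 156, 105 and 106 CPM in WT. All enhancer KO libraries were above WT replicate 1, which was itself well above WT replicates 2 and 3. The log2 fold change was 0.58 ± 0.181 (SE), with a 95% interval of 0.11 to 1.05 (edgeR adjusted p = 0.0716). It was called without WT replicate 1 (0.80, adjusted p = 1.58e-07), and against WT replicate 1 by itself the log2 fold change was 0.25. Once the gene structure trend was taken out it was 0.67 (adjusted p = 0.0355), and DESeq2 called it at 0.60 (adjusted p = 0.0162).

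Some other genes split the WT libraries in the same way as Camk2a. Nrgn, the calmodulin-binding neurogranin gene abundant in forebrain, had 86.3, 85.6 and 103 CPM in enhancer KO, against 70.8, 12.1 and 8.49 CPM in WT. Camkv, a kinase-like gene of the same family that lacks activity, had 43.2, 39.9 and 30.7 CPM in enhancer KO, against 40.6, 20.3 and 19.0 CPM in WT. Both are on the pathway lists but were picked out after their values were seen, and neither was called (edgeR adjusted p = 0.276 and 0.394). The 16 midbrain neuron markers summed to 98.4, 92.9 and 95.5 CPM in enhancer KO, against 115, 67.7 and 78.9 CPM in WT. Barhl1 was the most abundant, at a mean of 18.2 CPM. Of 13 tested 1 was higher (7.69%), below the 13.4% of all genes called higher. The higher gene, named after its values were seen, was Th, of catecholamine synthesis, and without WT replicate 1 there were 7 higher. The 14 forebrain neuron markers summed to 233 to 239 CPM in enhancer KO and 186 to 207 CPM in WT. Of 11 tested 1 was higher (9.09%, also below 13.4%), Ppp1r1b, which is also the most abundant, at a mean of 104 CPM. It is on the inhibitor and phosphatase list as well. There were 5 higher without WT replicate 1 and 0 without any 1 of the enhancer KO libraries. Among their defining cortical members, Emx1 was near 0, with 1 to 4 reads per library. Of 18 Purkinje cell markers 11 rose and 0 fell (61.1% called, beside 31.3% of all genes), with a median log2 fold change of 0.32. They were 7 without enhancer KO replicate 1. Camk2a amounted to 2.29% ± 0.164 of their summed CPM in enhancer KO and 1.99% ± 0.698 in WT (SD, n = 3 each; exact permutation p = 0.4), and WT replicate 1 was the highest library at 2.79%. Whether cerebellar neurons also make the midbrain and forebrain markers was not tested. Nor was the part of any of these cell types in the Camk2a values.

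**Figure D3:**
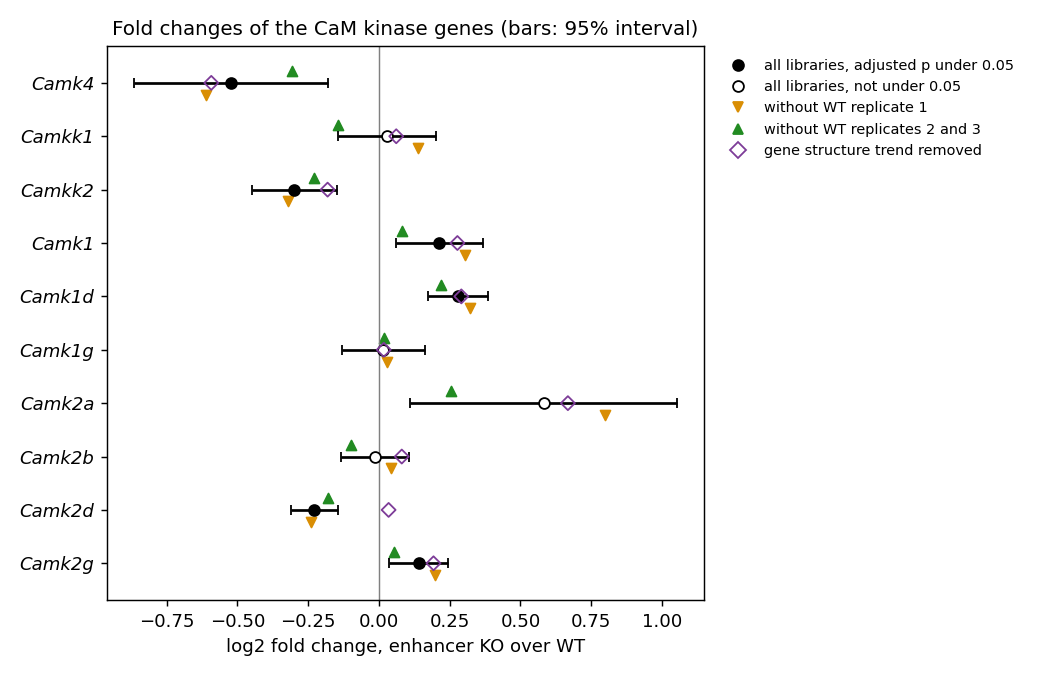
Log2 fold change of each CaM kinase gene, enhancer KO over WT (x axis), with its 95% interval, filled where the adjusted p was under 0.05. Coloured marks give the value without WT replicate 1, without WT replicates 2 and 3, and with the gene structure trend removed; Camk2a lies between 0.25 and 0.80, and Camk2d moves to 0.034 with the trend removed.

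The make-up of CaMKII transcripts within a library does not depend on library scaling. Camk2a made up 22.4%, 21.8% and 20.1% of the summed Camk2 level per kb in enhancer KO, against 18.1%, 14.1% and 14.2% in WT. Every enhancer KO library was higher, by 5.99 percentage points on average (exact permutation p = 0.1, the smallest possible). Camk2b made up 40.7% ± 1.25 in enhancer KO and 44.9% ± 0.991 in WT, and Camk2d 7.36% ± 0.0750 in enhancer KO and 9.46% ± 0.938 in WT (SD, n = 3 each; exact permutation p = 0.1 for each). Neither gene's groups overlapped. Once the gene structure trend was taken out, the log2 fold changes of Camk2b and Camk2d were 0.081 and 0.034, and shares with that trend removed were not computed. Camk2g made up 30.5% ± 0.146 in enhancer KO and 30.2% ± 0.608 in WT (SD, n = 3 each; exact permutation p = 0.5). These shares depend on the length used. Per kb of principal transcript Camk2g made up 25.4% ± 0.256 in enhancer KO and 24.2% ± 0.242 in WT without overlap (SD, n = 3 each; exact permutation p = 0.1), and the differences of Camk2b and Camk2d were -2.65 and -3.36 percentage points, beside -4.20 and -2.09 per kb of merged exons. From reads with no length they were -2.38 and -4.26. The ratio of Camk2a to Camk2b per kb was 0.564, 0.542 and 0.478 in enhancer KO, against 0.412, 0.314 and 0.309 in WT, and the beta form led in every library. Summed over the 4 genes, Camk2 was at 115 ± 1.62 CPM per kb in enhancer KO and 105 ± 9.12 CPM per kb in WT (SD, n = 3 each; exact permutation p = 0.3), with overlapping groups. Camk4 relative to that sum was 1.11 ± 0.158 in enhancer KO and 1.77 ± 0.343 in WT (SD, n = 3 each; exact permutation p = 0.1).

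**Figure D4:**
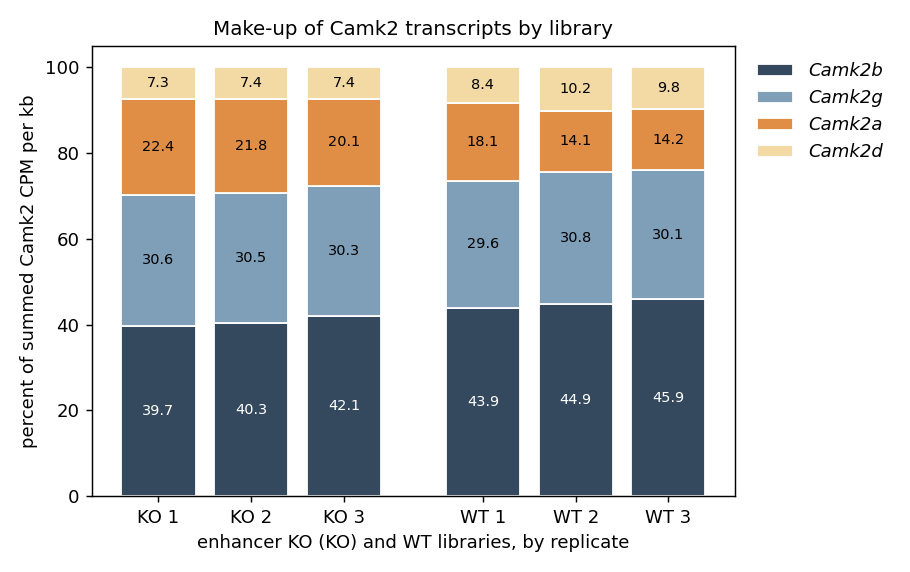
Share of each CaMKII gene in the summed Camk2 CPM per kb (y axis, percent) for the 3 enhancer KO libraries and, to their right, the 3 WT libraries. Camk2a takes 20.1% to 22.4% in enhancer KO and 14.1% to 18.1% in WT, while Camk2b and Camk2d take less in enhancer KO.

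The genes around the kinases were counted in lists, to be read beside 13.4% of all genes called higher and 17.9% lower. Both endogenous inhibitors of CaMKII rose. Camk2n1 rose to 322, 322 and 319 CPM in enhancer KO, against 234, 206 and 190 CPM in WT. Enhancer KO libraries were nearly equal and all above WT. Fitted with edgeR, the log2 change was 0.61 ± 0.0654 (SE) with an adjusted p of 8.62e-05, and each fit that left out 1 library kept the call. Against WT replicate 1 by itself the log2 fold change was 0.48. Camk2n2 rose to 144, 142 and 146 CPM in enhancer KO, against 123, 119 and 120 CPM in WT (log2 fold change 0.25 ± 0.0390, SE; edgeR adjusted p = 0.000540). Camk2n1 reads were 0.314 ± 0.00673 of the summed Camk2 CPM in enhancer KO and 0.215 ± 0.0106 in WT (SD, n = 3 each; exact permutation p = 0.1). Of the 7 inhibitor and phosphatase genes 3 rose and 0 fell, with a median of 0.14 on the log2 scale. The third was Ppp1r1b, the protein phosphatase inhibitor DARPP-32, at 0.27, which lost its call without any 1 of the enhancer KO libraries (edgeR adjusted p from 0.0541 to 0.0593). Without WT replicate 1, 5 were higher.

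Of 6 genes of calmodulin-buffering proteins and their relatives 3 rose and 0 fell, with a median of 0.27, beside 13.4% of all genes higher and 17.9% lower. They were Gap43, the growth cone protein, at 0.29, Pcp4l1, a relative of Pcp4, at 0.30 and Basp1 at 0.26. Binding of calmodulin was not measured for any of them. Without enhancer KO replicate 2 or WT replicate 3, 1 of them was higher.

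Calcineurin, the calmodulin-dependent phosphatase that opposes CaM kinases on many substrates, had 4 of 9 genes higher and 2 lower, with a median of 0.07, beside 31.3% of all genes called. Ppp3r1, its regulatory subunit, had 389, 392 and 403 CPM in enhancer KO, against 332, 315 and 293 CPM in WT (log2 fold change 0.33, edgeR adjusted p = 0.000458). Its regulators Rcan2 and Rcan1 rose by 0.28 and 0.24, and Cabin1, an inhibitor of calcineurin, was at -0.37 on the same scale. These 4 calls held in each fit that left out a library.

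Of 15 genes of the transcriptional route downstream of CaMKIV and CaMKI, 1 rose and 6 fell, with a median of -0.05, beside 13.4% of all genes higher and 17.9% lower. Crtc2, a CREB coactivator, had 18.9, 18.5 and 20.2 CPM in enhancer KO, against 28.6, 32.4 and 31.7 CPM in WT. Its log2 change came to -0.68 ± 0.0682 (SE) with edgeR's adjusted p at 2.58e-05, and each fit that left out 1 library kept the call, as did the removal of the gene structure trend (-0.64). The acetyltransferase genes Ep300 and Crebbp had log2 fold changes of -0.19 and -0.20, and Crtc3 of -0.25. Those 3 calls were lost once the gene structure trend was taken out (Ep300 -0.053, Crebbp -0.094 and Crtc3 -0.13, edgeR adjusted p = 0.339, 0.0850 and 0.105) and with library size alone. With library size alone 1 of the 15 was lower, and without WT replicate 3, 3 were lower. The gene that rose, named after its values were seen, was Mef2c, at 0.41, and it was not called without enhancer KO replicate 1, enhancer KO replicate 3 or WT replicate 2 (edgeR adjusted p = 0.0558, 0.0509 and 0.0924). Of 11 early genes that CREB can induce, 1 rose and 0 fell, with a median of 0.07. This was Fos, with 38.5, 38.5 and 44.2 CPM in enhancer KO, against 30.8, 29.0 and 37.1 CPM in WT (log2 fold change 0.32, edgeR adjusted p = 0.0291). The call was lost without enhancer KO replicate 3, WT replicate 1 or WT replicate 2.

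Of 17 genes of synaptic partners and substrates of CaMKII 3 rose and 6 fell, with a median of -0.08, beside 13.4% of all genes higher and 17.9% lower, so the share of rises was near that of all genes. The AMPA receptor gene Gria1, whose product CaMKII phosphorylates, averaged 634 ± 14.6 CPM in enhancer KO and 495 ± 29.8 CPM in WT, and Gria2 averaged 233 ± 8.92 CPM in enhancer KO and 327 ± 9.65 CPM in WT (SD, n = 3 each). Their edgeR adjusted p were 0.000282 and 1.24e-05. On the log2 scale the calcium channel gene Cacna1a was at -0.29 and the inositol trisphosphate kinase gene Itpka at 0.42. With library size alone 2 of the 17 were lower, and without WT replicate 1, 5 were higher. Of 14 other kinase genes of the CaM kinase-like group 1 rose and 3 fell, with a median of 0.02. That is 28.6% called, near the 31.3% of all genes. They were Dclk3 at 0.72, Eef2k at -0.37, Dclk2 at -0.35 and Dclk1 at -0.13, of which Dclk1 kept its call under 4 of 17 alternatives. Without WT replicate 1, 4 of this group were higher, and 1 was lower when enhancer KO replicate 1 was left out. Of 11 genes of the Camkk2 and AMPK route edgeR called 0, with 2 at an unadjusted p under 0.05, limma-voom called 0 and DESeq2 0, and the median was -0.02. Its most abundant members were Cab39, with 222 CPM in enhancer KO and 212 CPM in WT, and Acaca, with 151 CPM in enhancer KO and 158 CPM in WT.

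**Figure D5:**
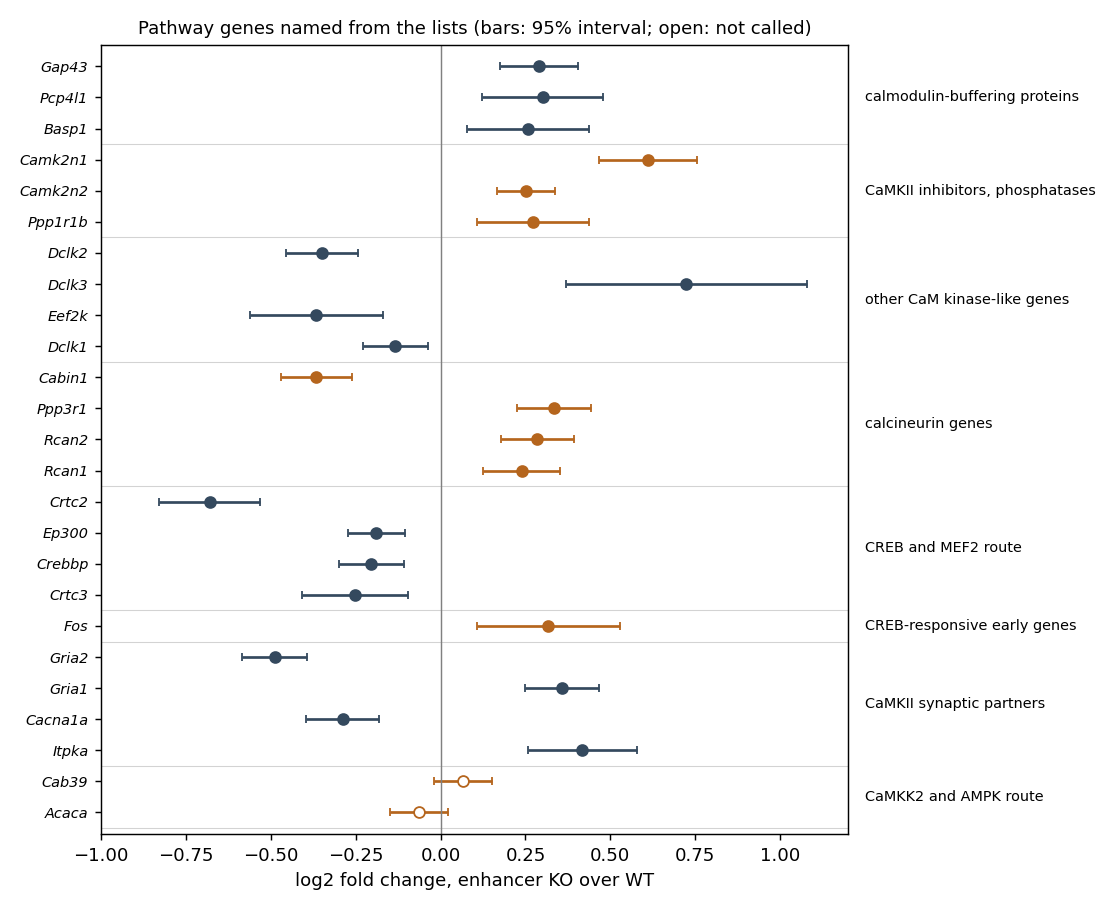
Log2 fold change, enhancer KO over WT (x axis), of genes named from the pathway lists, with 95% intervals and open circles where not called. Dclk3 at 0.72 and Camk2n1 at 0.61 lie far above 0 and Crtc2 at -0.68 far below, and Cab39 and Acaca are not called.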

How the data were processed

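Gene read counts were deposited by the authors for 3 enhancer KO and 3 WT libraries of P18 cerebellum. Per the submitters' processing notes, reads were trimmed with Trimmomatic and aligned with STAR to mm10; the tool versions and the kit's strandedness were not given in the sources used here. Column 4 of the deposited counts was used, which held nearly all reads of each CaM kinase gene; the 4 summary lines that name no gene stayed out of library sizes. From these counts, low genes were removed with filterByExpr, leaving 15846, TMM factors scaled the libraries, and a model of enhancer KO against WT was fitted with edgeR 4.0.16 (robust quasi-likelihood, R 4.3.3), with Benjamini-Hochberg adjustment over all genes and a threshold of 0.05. CPM use the scaled library sizes. Lengths came from GENCODE gene models of the mm10 build. Single values were tested by two-sided exact permutation. The fit was tested on simulated counts. The alternatives tried were a replicate block, scaling by RLE or by library size only, other filters, DESeq2 1.42.0, limma-voom 3.58.1, a minimum fold of 1.2, the unstranded counts, removal of a smooth trend over intron length, exon length and GC content with mgcv 1.9.3, and libraries left out. Principal transcript lengths and ratios to marker sums were added after seeing the data. The members and lists were chosen with earlier results of these data known. The text names all 10 members, Atoh7, up to 4 called genes of each pathway list by smallest p (the 2 most abundant where none passed), the most abundant marker of a list, and the 5 genes nearest Camk4. No pair of libraries differed by as little as sampling noise. Intervals cover the spread between libraries only. The results of 1 pathway list are not reported here.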

Additional observations from a re-analysis of the deposited data

How the results depend on the processing

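Of the family, Camk1d lost its call under 1 of 17 alternatives, the minimum fold of 1.2, and Camk4 and Camk2g lost theirs under 8 and 9. The losses of Camk4 and Camk2g include the fit with WT replicate 1 as the lone WT library. With library size alone 1689 genes were lower. A test against a minimum fold of 1.2 called 83 genes higher and 908 lower, with 0 CaM kinase genes in either direction. With the gene structure trend removed 0 CaM kinase genes were lower, and the log2 fold changes of Camk2d, Camk2b and Acaca turned to 0.034, 0.081 and 0.078. Camk2b, near 0 throughout, also turned positive with library size alone (0.046) and unstranded counts (0.0048), and in the fits without 1 library ranged from -0.049 to 0.041. In those fits Camk1g ranged from -0.025 to 0.050 and Camkk1 from -0.036 to 0.14, with 1 to 4 CaM kinase genes higher and 1 to 3 lower, and over all genes 1420 to 2214 higher and 2181 to 2710 lower. Without both WT replicates 2 and 3, where all spread comes from the enhancer KO libraries, 1640 genes and 1 CaM kinase gene were lower, Camkk1 was at -0.14 and Camkv at -0.077. Shares within Camk2 differed by -2.38, -4.26 and 1.12 percentage points for Camk2b, Camk2d and Camk2g from raw counts, and by -2.65, -3.36 and 1.25 with principal transcript length. Reads outside exons differed by -19.3 percentage points when taken over uniquely aligned reads. The cause of these shifts was not tested.

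Correlations of deviations were 0.103, -0.0797 and -0.165 between same-numbered libraries, inside the range of the other combinations (-0.226 to 0.222). With 3 libraries a group these values cannot decide whether the replicate numbers pair the samples. With a replicate block 1961 genes were higher and 2635 lower, and 4 CaM kinase genes were higher and 3 lower, with Camk2a at 0.61 (edgeR adjusted p = 0.0268). The 3 libraries a group limit what small changes can be called, and Atoh7 rests on 28 to 72 reads a library.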
